A study of Mus musculus with 15 samples.

Results

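Beta and gamma crystallins are the small, stable proteins that fill the fibre cells of the eye lens and keep it transparent. All of them are built from paired Greek key domains. Beta crystallins assemble into dimers and larger complexes, whereas gamma crystallins stay monomeric, and transcripts of some of these genes are also found outside the lens, in retina and brain. Crybb2 encodes beta-B2-crystallin, a major beta crystallin of the adult lens, and alleles of it cause cataract in mice and in people. The title of the series asks about a Crybb2 allele and about expression of the gene in the brain.

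The 7 genes described are 3 beta crystallins, Crybb2, Cryba1 and Cryba2, and 4 gamma crystallins, Crygb, Crygc, Crygd and Crygs. They were found as the probes whose only gene symbol in the platform annotation is 1 of these names, which gave 1 probe per gene, 7 of 20205 probes on the array. Each was measured often enough, 4 times or more per dye orientation, to be among the 8058 probes tested. The genes were listed because they meet that minimum, so their presence among tested probes is not a result.

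Total RNA of brains of mice homozygous for O377, the mutant line behind the Crybb2 allele of the title, was hybridised against RNA of brains of wild-type mice on 15 arrays with 2 colours. The mutant RNA came from 5 brains and the wild-type RNA was 1 pool of 4 brains, and the labels tie no array to a brain. The labels give no age, sex, strain or brain region. Mutant RNA carried Cy5 on 7 arrays (1, 2, 5, 6, 9, 10 and 13, numbered in accession order) and Cy3 on the other 8 (3, 4, 7, 8, 11, 12, 14 and 15). With 1 wild-type pool the spread between wild-type animals is not measured. The p-values rest on differences from array to array, some or all of which may be technical.

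Each value is a log ratio, read here as log2. Its numerator could be the mutant channel or the Cy5 channel, and the sources used here do not say which. Each probe was therefore described by a pair of quantities. The dye-switching component is the mean with mutant RNA in Cy5 minus the mean with mutant RNA in Cy3, divided by 2. The shared component is the mean of these 2 means. With Cy5 as numerator the dye-switching component is the log2 difference of mutant against wild-type brain, and with the mutant as numerator the shared component is. Ratios carry no level of expression, so the amount of crystallin RNA in brain cannot be read from them. In whole brain RNA, fewer cells of a type and less RNA per cell cannot be told apart.

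The sequences around the starts of these genes were compared for shared letters. Those of Crybb2, the gene altered in the mutant, and of 3 neighbouring gamma genes are printed here. RefSeq windows of 300 bases (GRCm38.p6, 250 before the annotated start and 50 after it) were matched by symbol for 7 of 7 members. All lie on the minus strand. Crygd (chr1:65063391-65063690), Crygc (chr1:65073483-65073782) and Crygb (chr1:65082241-65082540) stand in a row on chromosome 1, with 10092 bases between the starts of Crygd and Crygc and 8758 between those of Crygc and Crygb. Crybb2 lies on chromosome 5 (chr5:113070068-113070367). Capitals mark TATA box letters (TATAAA or TATATA), the longest run of bases shared by the 3 gamma genes and the longest runs shared by Crygc and Crygd, and the Crybb2 window holds none of them.
Crybb2: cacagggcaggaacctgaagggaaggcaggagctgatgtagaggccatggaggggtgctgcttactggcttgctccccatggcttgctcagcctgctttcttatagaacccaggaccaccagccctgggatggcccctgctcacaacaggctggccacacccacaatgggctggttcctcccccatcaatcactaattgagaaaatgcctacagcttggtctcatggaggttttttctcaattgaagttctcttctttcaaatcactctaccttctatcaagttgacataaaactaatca
Crygd: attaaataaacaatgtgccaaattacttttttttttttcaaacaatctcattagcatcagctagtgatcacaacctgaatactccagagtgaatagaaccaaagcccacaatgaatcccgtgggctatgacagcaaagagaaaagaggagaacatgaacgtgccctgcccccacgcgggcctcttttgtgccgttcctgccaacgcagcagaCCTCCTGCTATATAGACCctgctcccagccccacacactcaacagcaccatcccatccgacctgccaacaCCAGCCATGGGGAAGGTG
Crygc: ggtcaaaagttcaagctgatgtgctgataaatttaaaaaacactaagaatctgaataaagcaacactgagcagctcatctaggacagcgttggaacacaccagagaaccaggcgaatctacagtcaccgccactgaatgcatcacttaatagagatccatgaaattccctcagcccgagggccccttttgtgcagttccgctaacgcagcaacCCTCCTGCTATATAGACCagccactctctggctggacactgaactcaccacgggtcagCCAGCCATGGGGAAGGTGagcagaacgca
Crygb: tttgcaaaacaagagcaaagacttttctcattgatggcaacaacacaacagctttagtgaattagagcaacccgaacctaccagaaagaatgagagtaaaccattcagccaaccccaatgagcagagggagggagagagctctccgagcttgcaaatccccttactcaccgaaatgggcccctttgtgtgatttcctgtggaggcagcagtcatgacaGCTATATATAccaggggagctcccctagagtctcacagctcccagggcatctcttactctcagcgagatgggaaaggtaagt

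The longest run that Crygb, Crygc and Crygd have in common is GCTATATA, which overlaps the TATATA motif. It begins 32, 31 and 32 bases before the start of Crygb, Crygc and Crygd, and 0.502% of 32851 promoter windows of the same length hold it on either strand. Crygc and Crygd share 2 longer runs, each of 18 bases. CCTCCTGCTATATAGACC, around the TATATA motif, is held by 4 windows of the 32851, those of Crygc, Crygd, Cryge and Crygf. CCAGCCATGGGGAAGGTG lies after the start, from base 22 of Crygc and base 33 of Crygd with the start counted as 1, and is held by 3 windows, those of Crygc, Crygd and Crygf. TATATA itself occurs in 5.67% of windows. The other TATA form, TATAAA, is in 13.6% of windows and in those of Cryba1 on chromosome 11 (23 bases before the start), Crygs on chromosome 16 (25 bases before) and Cryba2 on chromosome 1 (3 bases before). Motifs were searched on both strands, and a match describes the letters only. Gamma crystallin genes are close in sequence, so a probe for 1 of them may also bind RNA of another, which was not tested.

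The first question was whether Crybb2 RNA differed between mutant and wild-type brain. Crybb2 had log ratios, with mutant RNA in Cy5, of -0.54, 0.02, 0.14, 0.00, -0.23, 0.33 and 0.22 on arrays 1, 2, 5, 6, 9, 10 and 13. Its log ratios with mutant RNA in Cy3 were 0.14, 0.06, -0.05, 0.01, -0.19, 0.13, -0.47 and 0.43 on arrays 3, 4, 7, 8, 11, 12, 14 and 15. The orientations overlapped along nearly their whole range, and each held 1 array near -0.5, array 1 with mutant RNA in Cy5 and array 14 with mutant RNA in Cy3.

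Crybb2 stood at about 0 in both quantities. Its dye-switching component was -0.01 ± 0.07 (SE, n = 15 arrays), with a 95% interval that runs from 1.12-fold lower to 1.11-fold higher in the mutant, with Cy5 as numerator (limma adjusted p = 0.982). Its shared component was 0.00 ± 0.07, with an interval of the same width in the other reading, from 1.12-fold lower to 1.11-fold higher (limma adjusted p = 0.998). Exact permutation of the dye orientation over the 6435 possible assignments gave a two-sided unadjusted p of 0.889. The sources used here do not give the position of the probe in the gene, so its value is no check of the allele or of the labels.

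None of the 7 crystallins passed the adjusted threshold of 0.05 in either component. In the dye-switching component 0.645% of all tested probes passed in limma and in the shared component 0%, so a count of 0 of 7 is near that background. At an unadjusted p under 0.05, 0 of 7 members passed in both components, where 9.57% of tested probes did in the dye-switching component and 9.49% in the shared component. The orientations overlapped at 7 of 7 members, and 0.906% of tested probes had orientations that did not overlap.

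**Figure D1:**
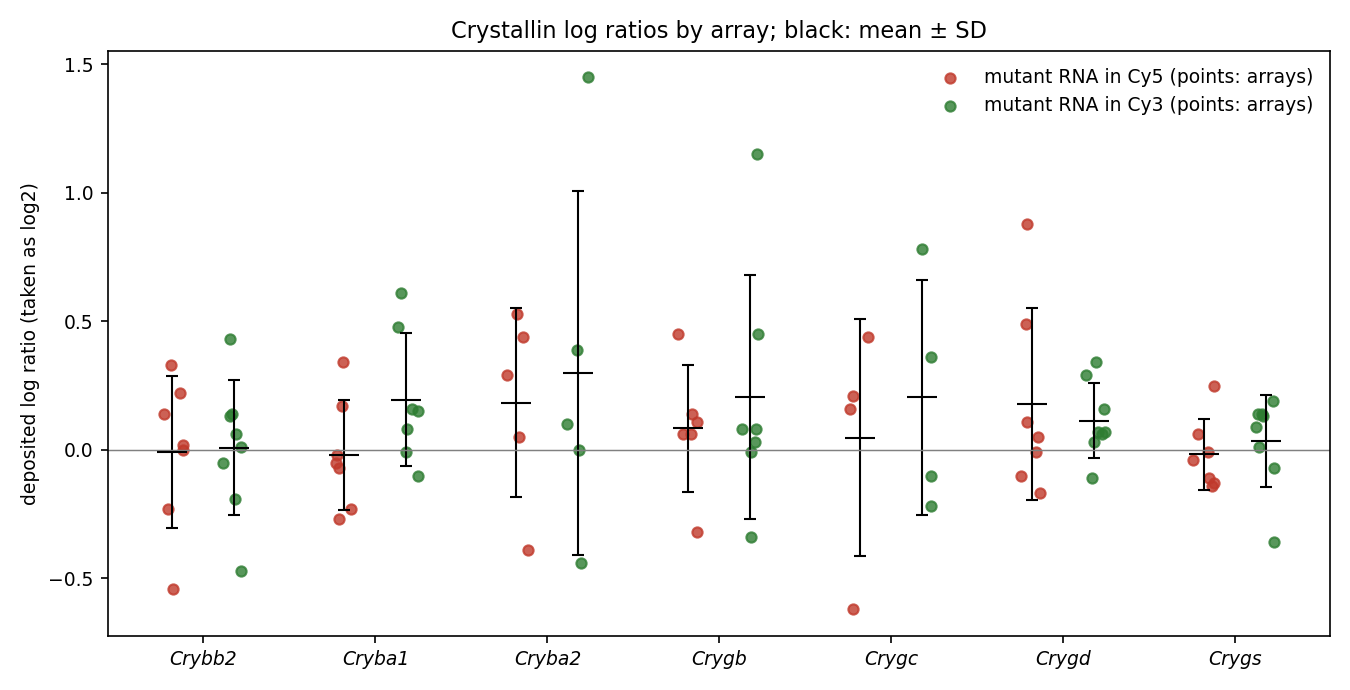
Deposited log ratio (vertical axis, taken as log2) of each crystallin on each array, with mutant RNA in Cy5 (left in each pair) and in Cy3 (right in each pair); points are arrays and black marks are the mean and SD. The orientations overlap at all 7 genes, and the widest points are Cryba2 at 1.45 on array 4 and Crygb at 1.15 on array 15.

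Among the beta crystallins, Cryba1 encodes the beta-A3 and beta-A1 proteins from a single transcript. Its log ratios with mutant RNA in Cy5 ran from -0.27 through a median of -0.05 to 0.34 (n = 7 arrays), and with mutant RNA in Cy3 from -0.10 through 0.15 to 0.61 (n = 7 arrays). Of the arrays with mutant RNA in Cy5, 2 of 7 lay above 0, and of those with mutant RNA in Cy3, 5 of 7 did, with much overlap. The dye-switching component of Cryba1 was -0.11 ± 0.07 (SE), with an interval from -0.25 to 0.04 (limma adjusted p = 0.668), and ran from -0.14 to -0.07 with 1 array left out. It was -0.07 without array 14 and -0.06 without arrays 9 and 10. With its sign turned by dye, Cryba1 lay below 0 on 10 of 14 arrays. This count did not set it apart, with Crygs at 11 of 15 and Crygd, whose dye-switching component was 0.03, at 10 of 15. The counts were 8 of 15 for Crybb2, 5 of 10 for Cryba2, 6 of 13 for Crygb and 3 of 8 for Crygc.

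Cryba2, which encodes beta-A2-crystallin, was the most variable member. Its log ratios with mutant RNA in Cy5 were -0.39, 0.53, 0.29, 0.05 and 0.44 on arrays 1, 5, 6, 9 and 13. With mutant RNA in Cy3 they were -0.44, 1.45, 0.10, 0.00 and 0.39 on arrays 3, 4, 7, 11 and 12. Each orientation held 1 low array, and array 4 stood above all the others. The mean ± SD was 0.18 ± 0.37 with mutant RNA in Cy5 and 0.30 ± 0.71 with mutant RNA in Cy3 (n = 5 arrays each). The shared component of Cryba2 was 0.24 ± 0.16 (SE), with a limma adjusted p of 0.64. Without array 4 the shared component of Cryba2 was 0.10.

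The gamma genes of the chromosome 1 cluster are expressed in lens fibre cells, mostly early in life. Crygb had log ratios from -0.32 through 0.09 to 0.45 with mutant RNA in Cy5 (lowest, median and highest of n = 6 arrays) and from -0.34 through 0.08 to 1.15 with mutant RNA in Cy3 (n = 7 arrays). The medians were almost equal, and the high value came from array 15. Without that array the shared component of Crygb was 0.07, where it was 0.14 ± 0.10 (SE, limma adjusted p = 0.664) with all arrays.

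Crygc was the most sparsely measured member. Its log ratios were -0.62, 0.44, 0.21 and 0.16 with mutant RNA in Cy5 (arrays 2, 5, 6 and 9) and -0.22, -0.10, 0.36 and 0.78 with mutant RNA in Cy3 (arrays 7, 8, 14 and 15). Both orientations held values on either side of 0. Its intervals were accordingly wide, from -0.41 to 0.25 in the dye-switching component and from -0.20 to 0.46 in the shared component.

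Crygd was above 0 on 11 of 15 arrays. Its log ratios were 0.11, -0.10, -0.01, 0.05, -0.17, 0.88 and 0.49 with mutant RNA in Cy5 (arrays 1, 2, 5, 6, 9, 10 and 13). Those with mutant RNA in Cy3 were 0.07, 0.06, 0.07, 0.29, 0.03, 0.16, -0.11 and 0.34 (arrays 3, 4, 7, 8, 11, 12, 14 and 15). With mutant RNA in Cy5, 4 of 7 arrays lay above 0, and with mutant RNA in Cy3, 7 of 8 did, from 0.03 to 0.34. The SD was 0.38 with mutant RNA in Cy5, where arrays 10 and 13 were highest, and 0.15 with mutant RNA in Cy3.

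The shared component of Crygd was 0.15 ± 0.07 (SE, n = 15), with the lowest p of the members in that component (unadjusted p = 0.0665 and adjusted p = 0.538 in limma). A two-sided exact sign-flip permutation of the plain mean, 0.14, gave an unadjusted p of 0.0416. That p came from 1 of 14 such exact tests, 2 for each member, and 9.49% of all tested probes had an unadjusted limma p under 0.05 in the shared component. Without array 10 the shared component was 0.09 and the dye-switching component was -0.03, against 0.03 ± 0.07 with all arrays. Array 10 had the widest spread of all arrays, an interquartile range of 0.892 where the others ran from 0.386 to 0.731, and the part of this in the Crygd values was not tested.

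Crygs encodes gamma-S-crystallin, the gamma crystallin that persists in the adult lens, and its gene lies apart from the chromosome 1 cluster. It had the steadiest values of the 7, from -0.14 through -0.04 to 0.25 with mutant RNA in Cy5 (n = 7 arrays) and from -0.36 through 0.11 to 0.19 with mutant RNA in Cy3 (n = 8 arrays). Its SD within orientations was 0.16, in the lowest 2.28% of the tested probes, whose median SD was 0.34. Crygs therefore had the narrowest intervals, from -0.14 to 0.09 in the dye-switching component and from -0.10 to 0.12 in the shared component. Cryba2, at the other end, had an SD of 0.57, which 82.9% of tested probes did not exceed, and Crybb2 and Crygd each had an SD of 0.28.

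**Figure D2:**
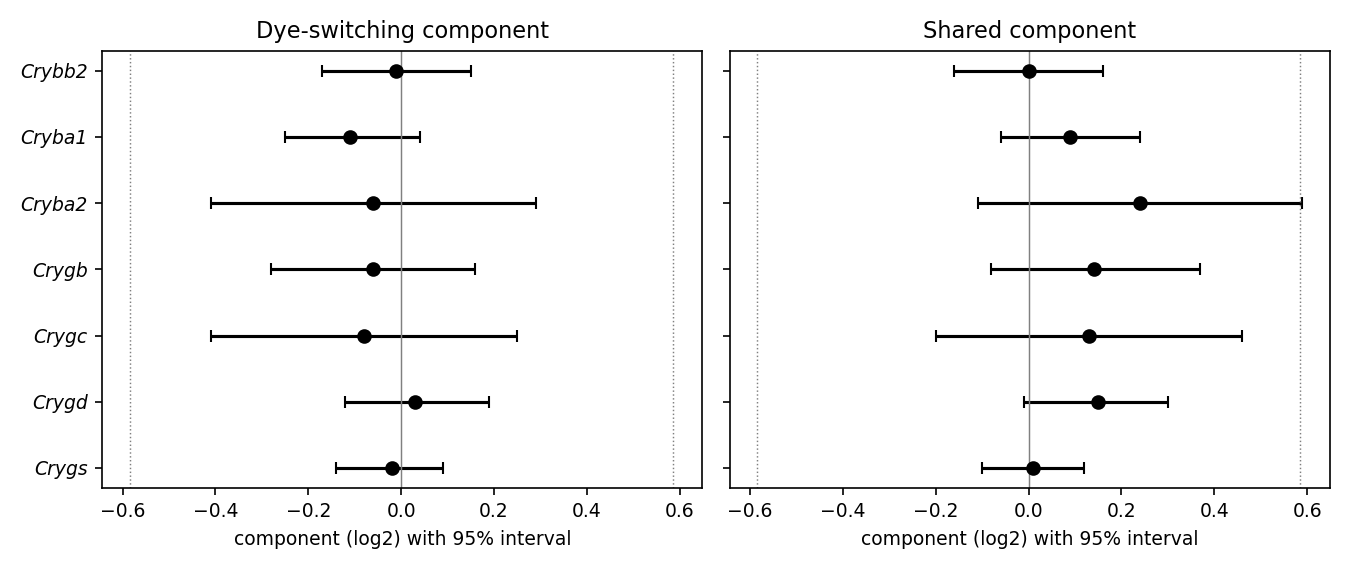
Dye-switching component (left) and shared component (right) of the 7 crystallins on the log2 scale, with 95% limma intervals; dotted lines mark 1.5-fold. All 14 intervals include 0, and 1 of them, the shared component of Cryba2 (-0.11 to 0.59), reaches 1.5-fold.

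The signs of the 7 members are given as counts, since no member passed the test and several components were smaller than their SE. The dye-switching component was below 0 for 6 members, all but Crygd (0.03), with a median of -0.06 beside 0.01 over all tested probes. The shared component was above 0 for 6 members, all but Crybb2 (0.00), with a median of 0.13 beside 0.00 over all tested probes. Of 90 crystallin log ratios, 58 lay above 0 (64.4%), where 50.4% of the values of all tested probes did. These values share 15 hybridisations and 1 wild-type pool and are not independent of each other, so no test was made of the shares.

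Only 6 of the 90 log ratios exceeded 0.58 in size, which is 1.5-fold, and 2 exceeded 1. The arrays differed in how many members lay above 0, and high and low arrays occurred in both orientations. On array 15, with mutant RNA in Cy3, 6 of 6 measured members were above 0, and their median stood at the 91.5th percentile of the tested probes of that array. On array 12, in the same orientation, 6 of 6 were above 0 at a median percentile of 72.4. With mutant RNA in Cy5, array 5 had 5 of 7 members above 0 (median percentile 69.9) and array 13 had 5 of 6 (65.9). At the low end were array 2 with 2 of 6 above 0 (38.9) and array 9 with 3 of 7 (39.7), both with mutant RNA in Cy5, and array 7 with 3 of 7 (40.9), with mutant RNA in Cy3. The array medians over all probes lay between -0.00618 and 0.0165.

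**Figure D3:**
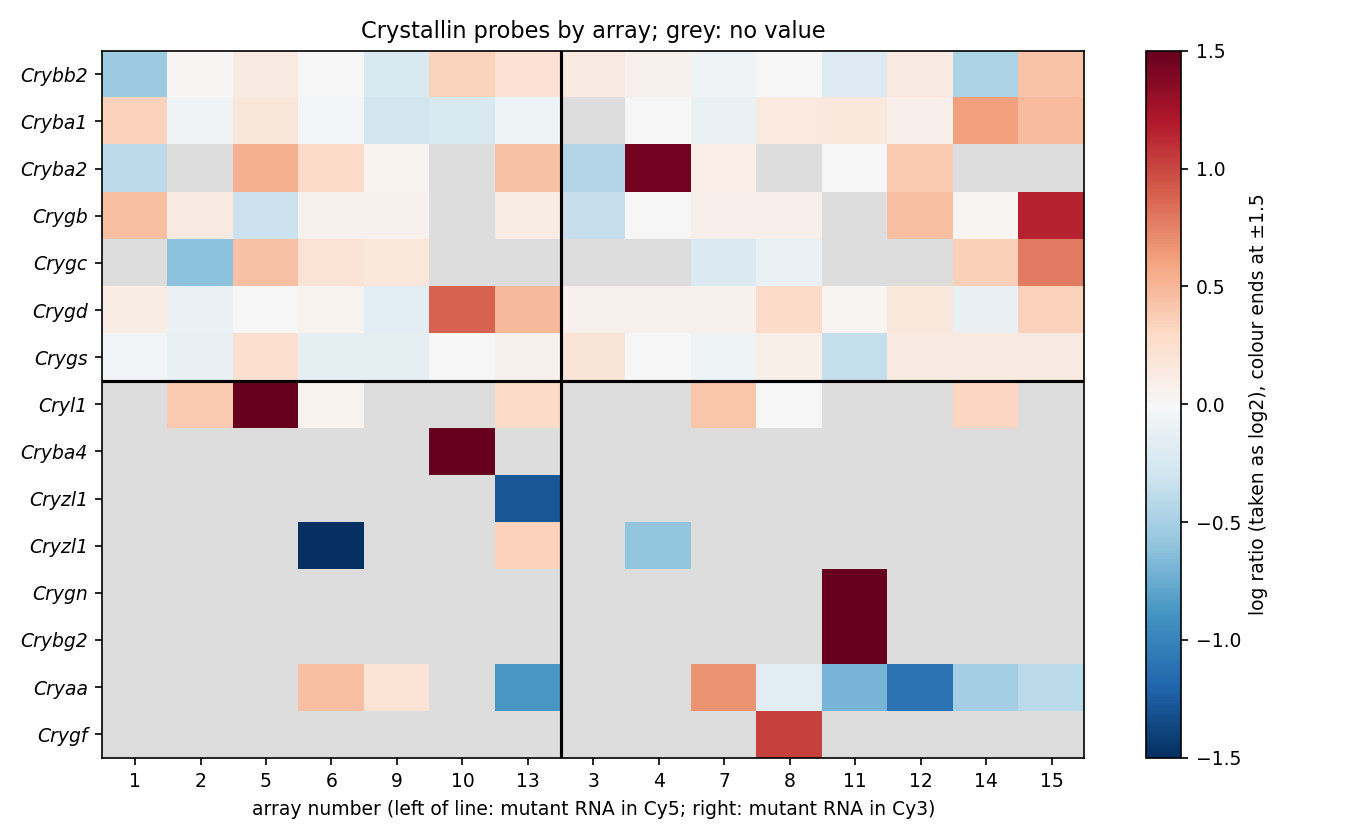
Log ratio of each crystallin probe (rows; the 7 members above the line, other crystallins with any value below it) on each array (columns; mutant RNA in Cy5 at left, in Cy3 at right), with grey for no value. The 7 members have 90 of 105 possible values, most of them pale, and the other crystallins are mostly grey, with Cryaa measured on 9 arrays.

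The members also differed in how often a value was present. Crybb2, Crygd and Crygs had a value on 15 of 15 arrays, Cryba1 on 14, Crygb on 13, Cryba2 on 10 and Crygc on 8. Crygc was listed on 4 of 7 arrays with mutant RNA in Cy5 and on 4 of 8 with mutant RNA in Cy3, and Cryba2 on 5 of 7 and 5 of 8. The members were chosen with a minimum of values per orientation, so these counts are a description with no test. The sources used here do not state the rule by which values were removed before deposit.

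Other crystallins were measured much less often. Of 16 genes listed, 9 were on the platform with 10 probes, and 0 of these probes met the minimum for the test. The members had been listed because they meet that minimum, so this 0 is not a result. Of all 20205 probes, 8058 met it. Cryab, the small heat shock protein alpha-B-crystallin that is abundant in brain glia, and Crym, a thyroid hormone binding protein of the forebrain, had no value on any array. Cryba4, Crygf, Crygn and Crybg2 had a value on 1 array each, with log ratios of 1.98, 1.03, 1.68 and 1.87. These 4 single values all exceeded 1, as 2 of the 90 values of the members did. Probes of the other gene lists below with a value on 1 array also spread widely, from -5.57 (Hspb7) through 0.11 (Aif1) to 2.90 (Slc1a3). Cryzl1, a quinone oxidoreductase relative, had 1 value (-1.28) on 1 probe and 3 on the other, and Cryl1, a sugar dehydrogenase, had 7, from 0.00 to 5.96.

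Cryaa, the lens chaperone alpha-A-crystallin, was present on 9 arrays. Its log ratios with mutant RNA in Cy5 were 0.45, 0.21 and -0.87 on arrays 6, 9 and 13. With mutant RNA in Cy3 they were 0.67, -0.16, -0.70, -1.11, -0.51 and -0.40 on arrays 7, 8, 11, 12, 14 and 15. With 3 values in the Cy5 orientation it did not meet the minimum and was not tested.

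Other genes of the lens and of crystallin biology gave little to set beside these. Bfsp2, a lens intermediate filament protein, was the 1 lens fibre gene of 13 listed that was on the platform, and did not pass in either component (dye-switching component -0.07 ± 0.10, shared component -0.13 ± 0.10, SE). Among 14 lens transcription factors 1 was tested, Prox1, a homeobox factor that activates crystallin genes (dye-switching component -0.07 ± 0.06), and Pax6 had no value. Among small heat shock proteins, the family of the alpha crystallins, 0 of 2 tested probes passed, those of Hspb2 (dye-switching component -0.39 ± 0.27) and Hspb8 (-0.11 ± 0.06). Of 3 calpains tested, proteases that cleave crystallins in the rodent lens, 1 passed in the dye-switching component, Capn3, at 1.72 ± 0.12 (SE, limma adjusted p = 4.87e-07). Of all tested probes 0.645% passed in that component, and the lists were chosen with earlier results of these data known. The dye-switching components of the 7 crystallins lay between -0.11 and 0.03, and a link between Capn3 and the crystallins was not tested.

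Among genes known to be abundant in brain, some probes had many values and others few. Of the marker probes listed for neurons, 4 of 10 were tested, for astrocytes 1 of 3 and for oligodendrocytes 2 of 6. On the whole array 8058 of 20205 probes were tested, so these small counts do not stand out. The astrocyte gene Aldh1l1, 2 probes of the oligodendrocyte gene Mbp and 1 probe each of the neuron genes Thy1 and Stmn2 had values on 15 arrays. The neuron genes Eno2 and Map2 had 1 probe each with values on 14. Of the 4 tested neuron probes 1 passed in the dye-switching component, this Thy1 probe, at -0.53 ± 0.11 (SE, limma adjusted p = 0.0276). Of all tested probes 0.645% passed in that component. The other neuron probes did not pass, with Stmn2 at -0.04 ± 0.05, Eno2 at 0.06 ± 0.09 and Map2 at 0.09 ± 0.11 (SE). The astrocyte transporter genes Slc1a2 and Slc1a3 had a value on 1 array each, and the choroid plexus gene Ttr had a value on 1 array for each of its 2 probes. For retina and photoreceptors the 1 probe present, Sag, had a value on 1 array, and for the lens Cryaa had 9 values and Bfsp2 had 14. Pituitary genes, Gh, Prl and Pomc, were all tested, with values on at least 14 arrays. Skeletal muscle genes had 3 of 4 probes tested, and the erythrocyte gene Alas2 had values on 15 arrays. For microglia 0 of 2 probes were tested. Ratios do not show how much of such RNA was present, and its part in the crystallin values was not tested.

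The second question was whether the crystallins varied together from array to array once the orientation means were removed. The deviations of Crybb2 and Crygd had a Pearson r of 0.60 and a Spearman rho of 0.62 over 15 arrays, and r was 0.70 without arrays 1 and 14, the farthest in Crybb2. Crybb2 and Crygs had r = 0.36 and rho = 0.55, and r was 0.67 without these arrays. Arrays 10, 13 and 15 were high for both Crybb2 and Crygd, and arrays 9 and 14 were low for both. The deviations were not scaled to the spread of each array, which was widest on arrays 10 and 9 (interquartile ranges 0.892 and 0.731). Within arrays 10 and 9 Crybb2 stood at percentiles 68.5 and 29.5, and Crygd at 93.7 and 35.6. On arrays 13, 15 and 14 Crybb2 stood at 72.1, 90.4 and 8.9, and Crygd at 93.3, 84.6 and 34.3.

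**Figure D4:**
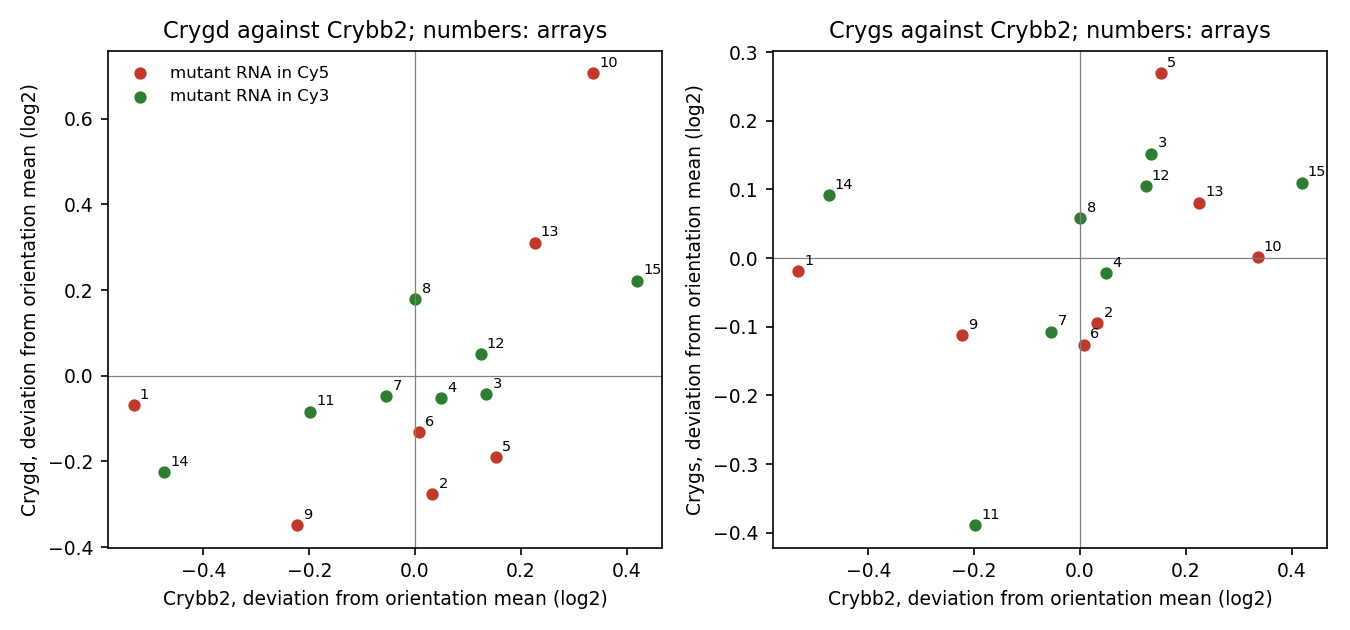
Deviation of Crygd (left) and Crygs (right) from the mean of their dye orientation (vertical axes, log2) against that of Crybb2 (horizontal axes, log2), each point an array with its number. Crygd follows Crybb2 with r = 0.60, and arrays 1 and 14 lie far to the left in both panels.

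The relations among the other pairs varied in size and sign, many of them over few arrays. Cryba1 and Crygs had r = 0.38 over 14 arrays and 0.41 without arrays 1 and 14. Over 8 arrays, Cryba1 and Crygc had r = 0.58, and 0.41 without arrays 14 and 15. Crygc and Crygs, also over 8 arrays, had r = 0.56, and 0.35 without arrays 2 and 7. Crybb2 and Cryba1 had r = -0.33 over 14 arrays, and without arrays 1 and 14, where Crybb2 was lowest and Cryba1 was at 0.34 and 0.61, r turned to 0.48. Among the clustered gamma genes, Crygb and Crygd had r = 0.38 over 13 arrays and 0.18 without arrays 3 and 15. Crygc and Crygd had r = 0.17 over 8 arrays and -0.02 without arrays 2 and 7. Crygb and Crygc had r = 0.34 over 8 arrays, with a Spearman rho of 0.00, and r = -0.29 without arrays 5 and 15. Over the 9 pairs with at least 13 arrays, r ran from -0.33 to 0.60. These coefficients describe arrays that share the wild-type pool and the mutant RNA source, and 21 pairs were computed.

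Against all other probes the likeness of Crygd to Crybb2 was not extreme. Among 6423 probes that shared at least 13 arrays with Crybb2, r had a median of -0.01, and its 95th percentile was 0.61. Crygd stood at percentile 94.3, Crygs at 81.0, Crygb at 65.7 and Cryba1 at 18.2. The 5 genes whose deviations were most like those of Crybb2 were Gpsm3, a modulator of G protein signalling (r = 0.88 over 13 arrays), Apex1, an endonuclease of base excision repair (0.87 over 15), H6pd, a dehydrogenase of the endoplasmic reticulum (0.86 over 15), Lsm1, of cytoplasmic messenger decay (0.84 over 15), and Dmgdh, a mitochondrial dehydrogenase (0.83 over 15). Of these, 0 were among the 5 most like by Spearman correlation, where their rho ran from 0.72 to 0.81, so the ranking depends on the measure. The r of these 5 ran from 0.68 to 0.84 without arrays 1 and 14. Among these 5, Apex1 passed in the dye-switching component (0.35, limma adjusted p = 0.0283), and the others did not (limma adjusted p from 0.737 to 0.971).

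The numbers of the probes were also set beside these relations. Of the 7 member probes, 6 have numbers between 15645 and 15654, and Crygb has the number 19553. Over all tested probes, pairs whose numbers differ by 1 had a median r of 0.05 (4471 pairs), and pairs whose numbers differ by 100 had a median of 0.01 (3179 pairs). The sources used here do not say what these numbers mean for the layout of the array, and their part in the likeness of Crybb2 and Crygd was not tested.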

How the data were processed

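The authors deposited 1 value per probe and array, a log ratio of the 2 channels that was taken here as log2, since its largest size, 12.33, exceeds the natural log of the range of a scanner of 16 bits (11.09). Array medians near 0 in the deposited values show that arrays had been centred. The sources used here do not state the centring method, the spot filter or the direction of the ratio. Scanner intensities were not used. Between 7843 and 10515 probes had a value per array. The number of arrays limits the precision.

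Values were used as deposited. Probes with at least 4 values in each dye orientation were fitted in limma 3.58.1 (R 4.3.3) with an intercept (shared component) and a dye orientation term (dye-switching component). Tests were moderated (eBayes) with Benjamini-Hochberg adjustment over 8058 probes. The code of the fit was run on simulated data with independent noise at each probe and array. That simulation is no check of the crystallin results. Symbols came from the platform annotation and were brought up to date by Entrez identifier with RefSeq (GRCm38.p6). On the platform 11723 probes had 1 symbol, 806 several and 7676 none. Other crystallins are named whether or not tested, the 5 genes most like Crybb2 by correlation of deviations, and further list genes by count. The genes of the fixed lists that are named without passing were chosen after their values were seen. Members and lists were chosen with earlier results of these data known. No value was repeated between any 2 arrays at the same probe, and Pearson correlations between arrays were at most 0.135. Exact tests used scipy 1.17.1.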

Additional observations from a re-analysis of the deposited data

How the results depend on the processing

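The count of crystallins past the threshold was 0 of the members tested in both components under every alternative run: other centring, scaling and filters, array weights, robust regression, limited values, averaged probes, a robust prior variance, no dye term (shared component only), no arrays 9 and 10, and each array left out in turn (lowest and highest count 0). The lowest adjusted p of any member was 0.353 under the first kind and 0.327 leaving out 1 array. Over all probes the dye-switching component held 52 calls, 204 with robust regression and between 36 and 49 with 1 array left out, and the shared component held 0, or 107 with robust regression. Of 155 member values under alternatives other than leaving out 1 array, 143 kept their direction and side of the threshold. Direction could not change under several of these. Averaged probes, limited values, the other filters and the robust prior variance left the component of each tested member as it was. Values that changed sign were all near 0. In the dye-switching component they were 0.01 (Crybb2), 0.03 (Cryba2) and 0.01 (Crygb) with robust regression, and for Crygd -0.01 with arrays scaled to one spread, -0.01 with array weights, -0.03 with robust regression and -0.0031 without arrays 9 and 10. The shared component of Crybb2 turned to 0.0015 with array weights, 0.03 with robust regression and 5.4e-06 with no dye term, also the mean of the exact test. The exact test of the shared component of Crygd, at 0.14, was the 1 that passed unadjusted. Leaving out an array without a value for a member could not change that member's component. Crygc was tested only in the 7 fits per component that left out an array without a Crygc value. With 1 array left out, values changed sign in 14 of 194 cases. The dye-switching component then ran from -0.04 to 0.03 for Crybb2, from -0.15 to 0.09 for Cryba2, from -0.11 to 0.02 for Crygb and from -0.03 to 0.06 for Crygd. The shared component ran from -0.03 to 0.04 for Crybb2 and from -0.01 to 0.04 for Crygs. Of the 5 genes most like Crybb2, 0 were among the 5 by Spearman correlation and all were with values limited to 2 in size. For each of these changes the cause was not tested. All 90 crystallin values were within 4 in size. The number of arrays limits what can be seen: the widest intervals were those of Cryba2, over 10 arrays, from 1.33-fold lower to 1.22-fold higher in the dye-switching component and from 1.08-fold lower to 1.51-fold higher in the shared component.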
